A study of Mus musculus with 9 samples.

Results

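The AMPA receptor genes described here are 10 members of 48526 genes in the table: the 4 genes of the pore-forming subunits (Gria1, Gria2, Gria3 and Gria4), 5 genes of transmembrane AMPA receptor regulatory proteins, or TARPs (Cacng2, Cacng4, Cacng5, Cacng7 and Cacng8), and the cornichon gene Cnih2. The members were chosen by gene symbol, matched to the Ensembl identifiers of the table. The choice was made with the comparison of knockout and control in view, since Gria1 and Cacng2 had been picked for being far higher in knockout and Gria3 for going the other way. The differences between the groups are therefore given for the members as a description, with no p-value, and the number of members past the threshold used for all genes is given beside the share of all genes without being read as a result. RNA was sequenced from the medial ganglionic eminence (MGE), a ventral source of cortical interneurons, of C57BL/6 mouse embryos at embryonic day 14.5. All 9 libraries carry Nkx2.1-cre, which expresses Cre where Nkx2-1 is active, and the reporter Rosa26-YFP. The 5 knockout libraries also carry 2 floxed alleles of Ctnnb1, the gene of beta-catenin (Ctnnb1fl/fl). Of the 4 controls, replicate 4 carries 1 floxed allele (Ctnnb1fl/wt) and replicates 1, 2 and 3 carry 0. The protocol speaks both of collected cells and of removed tissue, and does not tell which applies to which library or whether cells were sorted, so cells without recombination may be among those measured. Separate embryos are not stated either, so errors and p-values cover the spread between these libraries, which may be technical. The comparison asks how the MGE transcriptome differs after Cre deletes Ctnnb1 in the Nkx2-1 lineage.

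AMPA receptors are tetramers of GluA subunits that open on binding glutamate and carry most fast excitatory transmission in the brain. TARPs and cornichons join the pore-forming subunits, promote their passage to the cell surface and slow or reshape the current. Immature neurons express receptor genes before they form synapses, and migrating cortical interneurons are known to carry AMPA receptors. The GluA2 subunit sets the calcium permeability of the receptor: a glutamine codon in the pore loop of its transcript is edited so that it is read as arginine, and receptors without edited GluA2 let calcium through. The sequences around that codon are shown because the subunits differ so much in their values below while sharing this part of the pore. They are the 48 bases around the codon in the GENCODE M21 transcripts, with the codon in capitals.
Gria1: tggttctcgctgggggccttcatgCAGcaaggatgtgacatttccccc
Gria2: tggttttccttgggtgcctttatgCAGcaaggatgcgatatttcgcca
Gria3: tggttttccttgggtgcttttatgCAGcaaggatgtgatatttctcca
Gria4: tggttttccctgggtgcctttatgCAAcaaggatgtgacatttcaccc
Against Gria2, the sequence differed at 9 bases in Gria1, at 3 in Gria3 and at 6 in Gria4. Read counts per gene do not show whether a transcript was edited.

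Each library held 5120585 to 5569444 counted reads, and the values are normalized read counts, in which 1 read was worth 0.957 to 1.01. Ctnnb1 stood at 7103, 7661, 7133, 6572 and 5477 normalized counts in knockout replicates 1 to 5, against 9841, 9960, 9967 and 9545 in control replicates 1 to 4. That is 55.7% to 77.9% of the control mean in single knockout libraries, with no overlap between the groups. The log2 fold change was -0.54 (SE 0.0960, limma adjusted p = 0.000811; exact two-sided permutation p = 0.00794, the smallest that 126 assignments of the libraries allow). Control replicate 1 stood apart in markers of cortical glutamatergic neurons and choroid plexus. The 12 cortical genes summed to 298 to 887 normalized counts in the knockouts, 3385 in control replicate 1 and 196 to 262 in control replicates 2 to 4. The 6 choroid plexus genes summed to 200 to 814 in the knockouts, 3010 in control replicate 1 and 210 to 409 in control replicates 2 to 4. For the members, and for some of the list counts and named genes that lost a call, values are also given against control replicates 2 and 3 alone. The family shares, the order of levels and the values relative to markers use all 4 controls.

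Gria1 was the member that differed most. Gria1 (ENSMUSG00000020524, chromosome 11, 57011387 to 57330244, mm10, protein coding), which encodes the subunit GluA1, had 633, 276, 849, 1185 and 1267 normalized counts in knockout replicates 1 to 5, against 33.4, 30.8, 19.1 and 1.99 in control replicates 1 to 4. Every knockout lay far above every control, although the knockouts themselves spread widely, with replicate 2 lowest, and control replicate 4 held only 2 reads of the gene. The means were 842 ± 407 in knockout (SD, n = 5) and 21.3 ± 14.3 in control (SD, n = 4). On the scale of log2(normalized count + 1) the difference was 5.53 (SE 0.836), rank 1 of 13780 tested genes. Gria1 had been picked for its rise, so the rank restates that choice. Without control replicate 4 the Gria1 difference was 4.73. Sst stayed at 4.76 or more with any 1 library left out, so rank 1 was then lost. Against control replicates 2 and 3 alone the Gria1 difference was 4.88.

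Gria4 and Gria2 were also higher in knockout, by less. Gria4 (chromosome 9, 4417896 to 4796234), which encodes GluA4, a subunit known from fast-spiking interneurons in the mature brain, had 598, 433, 711, 720 and 747 normalized counts in knockout replicates 1 to 5, against 78.8, 149, 172 and 77.7 in control replicates 1 to 4. Both the library with cortical transcripts and the heterozygous one were low among the controls, and the groups did not overlap. The log2 difference was 2.48 (SE 0.270), and 1.97 against control replicates 2 and 3 alone. Gria2 (chromosome 3, 80681450 to 80802835), the gene of the subunit that blocks calcium entry once edited, had 637, 586, 537, 751 and 620 normalized counts in knockout replicates 1 to 5, against 418, 416, 457 and 237 in control replicates 1 to 4. The gap between the lowest knockout and the highest control was small, and control replicate 4 lay well below the other controls. The log2 difference was 0.75 (SE 0.173), and 0.51 against control replicates 2 and 3 alone.

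Gria3 went the other way. Gria3 (chromosome X, 41400854 to 41678601), which encodes GluA3, had 44.5, 52.9, 38.1, 45.9 and 56.4 normalized counts in knockout replicates 1 to 5, against 72.8, 88.4, 85.4 and 71.7 in control replicates 1 to 4. All knockouts were below all controls, and the log2 difference was -0.74 (SE 0.161), or -0.87 against control replicates 2 and 3 alone. It was the only member lower in knockout without overlap.

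Among the TARPs, Cacng2 differed most. Cacng2 (chromosome 15, 77991748 to 78120028) encodes stargazin, the first TARP to be described, which binds GluA subunits and postsynaptic scaffold proteins. It had 132, 115, 190, 206 and 217 normalized counts in knockout replicates 1 to 5, against 17.2, 22.8, 37.2 and 18.9 in control replicates 1 to 4. The lowest knockout was above the highest control by a wide margin. The log2 difference was 2.81 (SE 0.241), and 2.47 against control replicates 2 and 3 alone. A gene on the other strand, A730060N03Rik, shares 5.86% of the exon bases of Cacng2 and had 4.81 to 9.07 normalized counts in knockout and 0 to 5.02 in control. The sources used here do not give the strand setting of the counting.

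Cacng8 and Cacng4 were higher in knockout by smaller amounts. Cacng8 (chromosome 7, 3390683 to 3415648), a TARP known from hippocampus and forebrain, had 80.1, 76.0, 79.2, 100.5 and 103 normalized counts in knockout replicates 1 to 5, against 37.4, 33.8, 36.2 and 42.8 in control replicates 1 to 4. Both groups were tight and stood apart, with a log2 difference of 1.20 (SE 0.157), and 1.29 against control replicates 2 and 3 alone. Cacng4 (chromosome 11, 107732357 to 107794557), a TARP known from the developing brain, had 645 to 1146 normalized counts in knockout and 540 to 596 in control, which is a narrow gap, with a log2 difference of 0.58 (SE 0.140), and 0.62 against control replicates 2 and 3 alone. The mean ± SD was 867 ± 199 in knockout (n = 5) and 567 ± 23.1 in control (n = 4).

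Cacng7 and Cacng5, both type II TARPs, overlapped between the groups. Cacng7 (chromosome 7, 3332955 to 3368221) had 795 to 846 normalized counts in knockout and 653 to 935 in control, with a log2 difference of 0.08 (SE 0.0984) and a negative one, -0.069, against control replicates 2 and 3 alone. The 5 knockouts varied less than the 4 controls, with a coefficient of variation of 2.69% in knockout and 15.2% in control. Cacng5 (chromosome 11, 107874605 to 107915055) had 5.02 to 16.1 normalized counts in knockout and 2.99 to 18.9 in control. So few reads give little precision, and its log2 difference of 0.22 (SE 0.464) changed sign without control replicate 4 (-0.26) and against control replicates 2 and 3 alone (-0.22).

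The TARP genes lie in groups along the chromosomes, and neighbours differed in what they showed. On chromosome 11, Cacng4 and Cacng5 lie next to Cacng1, and on chromosome 7, Cacng7 and Cacng8 lie next to Cacng6. Cacng1 and Cacng6 are gamma subunits outside the TARP group. Neither was tested: Cacng1 had 0 to 7.05 normalized counts in knockout and 0 to 4.02 in control, and Cacng6 had 0 in each of the 5 knockouts and 0 to 1.99 in control. At this depth, 0 reads allow up to 3 in a library, a limit that covers counting error only.

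Cnih2 (chromosome 19, 5092868 to 5098521), a cornichon that helps AMPA receptors leave the endoplasmic reticulum and slows their closing, had 532, 412, 825, 667 and 1008 normalized counts in knockout replicates 1 to 5, against 335, 244, 181 and 210 in control replicates 1 to 4. The groups did not overlap, and knockout replicate 2 was nearest to the controls, of which replicate 1 was highest. The log2 difference was 1.47 (SE 0.271), and 1.64 against control replicates 2 and 3 alone.

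**Figure D1:**
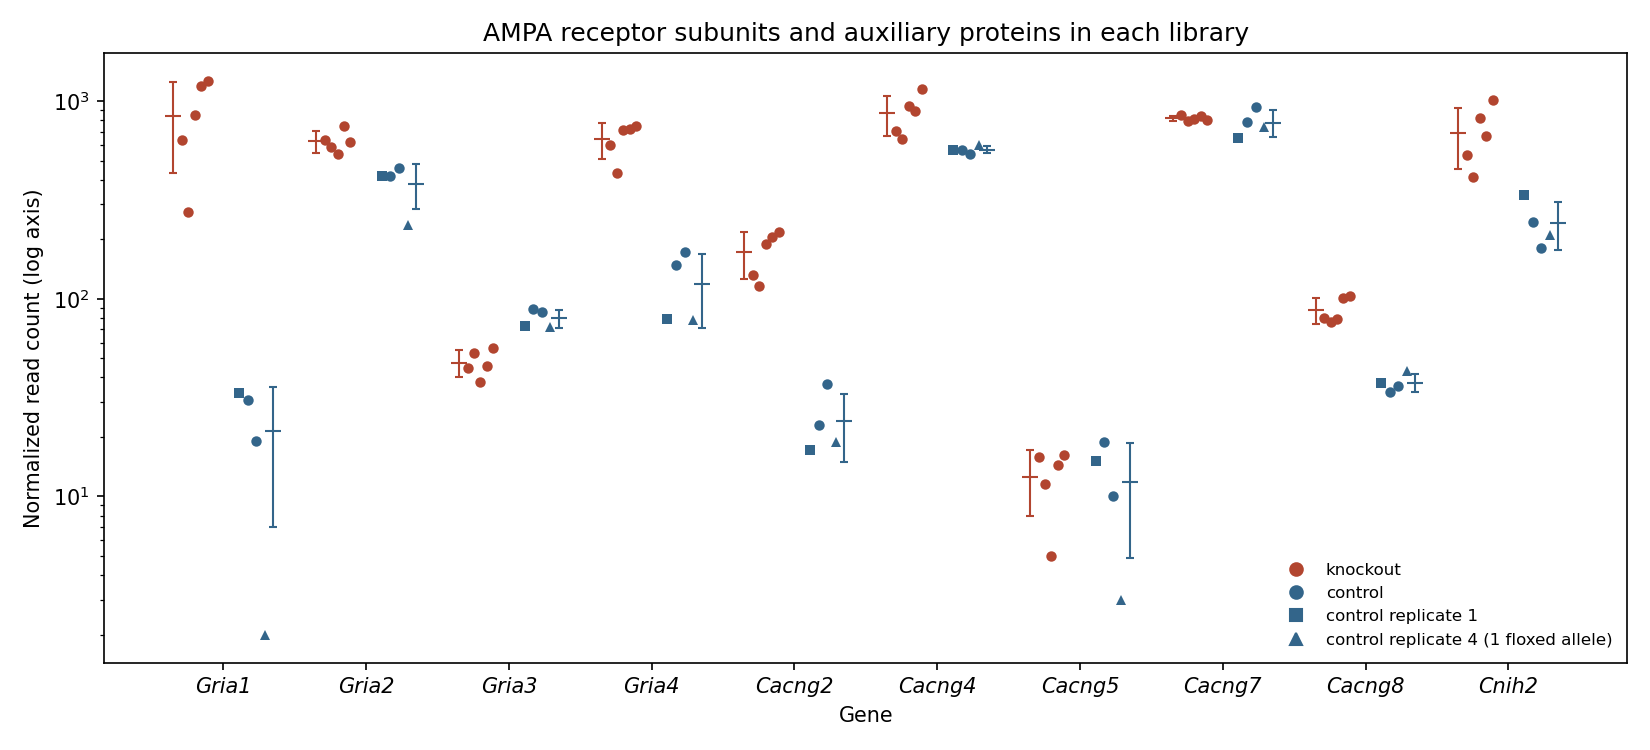
Normalized read count of each member in each library on a log axis, with knockout left of control and the group mean and SD beside the points. Gria1 ran from 276 to 1267 in knockout and from 1.99 to 33.4 in control, Gria3 was below the controls in every knockout, and Cacng5 and Cacng7 overlapped.

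All 10 members passed the filter of a mean of 10 normalized counts. By limma, 7 were past the threshold of adjusted p 0.05 and higher in knockout, 1 was past it and lower, and 2 did not pass. Over all genes tested the shares were 17.2% higher and 17.3% lower, 34.5% in all. The groups did not overlap for 7 members higher and 1 lower, while over all genes these shares were 14.5% and 14.6%, 29.1% in all. Because this comparison was in view when the members were chosen, nothing is read from these counts. The median log2 difference was 0.97 over the members and -0.01 over all genes tested. Against control replicates 2 and 3 alone, 6 members were past the threshold and higher and 1 was lower.

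Promoters of members are shown for Gria4 and Cnih2, which were higher in knockout, and for Cacng7, which overlapped between the groups. RefSeq promoters (build GRCm38.p6, 250 bases before to 50 after the start) were matched for 7 members; Gria1, Gria3 and Cacng4 had none in the table. Capitals mark the GC-box letters GGGCGG on either strand. Gria4 is from chr9:4796185-4796484 (minus strand), Cnih2 from chr19:5098472-5098771 (minus strand) and Cacng7 from chr7:3332575-3332874 (plus strand).
Gria4: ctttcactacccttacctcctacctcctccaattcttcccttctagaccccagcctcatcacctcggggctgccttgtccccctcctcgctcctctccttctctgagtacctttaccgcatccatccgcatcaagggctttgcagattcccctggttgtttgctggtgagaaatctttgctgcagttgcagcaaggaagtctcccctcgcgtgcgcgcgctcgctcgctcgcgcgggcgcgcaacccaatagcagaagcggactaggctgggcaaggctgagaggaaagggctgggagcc
Cnih2: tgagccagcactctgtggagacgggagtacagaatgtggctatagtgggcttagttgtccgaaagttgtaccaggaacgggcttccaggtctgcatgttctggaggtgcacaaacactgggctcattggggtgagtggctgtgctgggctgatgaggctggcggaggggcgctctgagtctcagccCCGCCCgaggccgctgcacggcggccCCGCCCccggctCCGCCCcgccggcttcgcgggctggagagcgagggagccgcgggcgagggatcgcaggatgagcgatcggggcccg
Cacng7: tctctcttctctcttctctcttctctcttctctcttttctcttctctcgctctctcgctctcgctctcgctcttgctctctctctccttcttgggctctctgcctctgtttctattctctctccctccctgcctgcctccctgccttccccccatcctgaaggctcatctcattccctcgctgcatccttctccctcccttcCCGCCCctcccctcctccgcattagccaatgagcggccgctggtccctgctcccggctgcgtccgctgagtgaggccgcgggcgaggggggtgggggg
The GC-box letters stood 3 times in Cnih2, once in Cacng7 and 0 times in Gria4, with no overlaps, and 35.7% of all 32851 promoters held them. The TCF/LEF letters CTTTGAT, the core that factors partnered by beta-catenin bind, were searched on both strands and stood in 0 of the member promoters matched and in 3.73% of all promoters. The homeodomain core TAATTA likewise stood in none of them and in 5.29% of all. The E-box CAGCTG stood in the promoter windows of Cacng2 (chr15:78119231-78119530) and Cacng8 (chr7:3393792-3394091) and in 16.3% of all. Both of these windows lie wholly inside the GENCODE bounds of their gene, away from its annotated 5' end. The GC content was 59.7% for Gria4, 67.3% for Cnih2 and 62.0% for Cacng7, against a median of 52.7% over all promoters. These are matches of letters in a short window and say nothing of binding.

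Levels were compared between members per kilobase of exon. In the knockouts the order of the medians, from high to low, was Cnih2 (487 normalized counts per kilobase), Cacng7 (332), Cacng4 (249), Gria1 (140), Gria4 (113), Gria2 (39.9), Cacng2 (34.4), Cacng8 (34.2), Gria3 (4.66) and Cacng5 (3.74). In the controls it was Cacng7 (313), Cnih2 (166), Cacng4 (158), Gria2 (26.8), Gria4 (18.1), Cacng8 (15.7), Gria3 (8.02), Gria1 (4.13), Cacng2 (3.79) and Cacng5 (3.29). Gria1 thus stood at place 4 in knockout and at place 8 in control, and Cacng7, Cnih2 and Cacng4 held the first places in both groups. Neighbours in the order over all 9 libraries were compared within libraries by an exact two-sided sign-flip test, with p adjusted over the 9 pairs. The order came from the same values that were tested, so neither the pairs nor their directions were set beforehand. On the log2 scale per kilobase, Cacng4 was above Gria4 by 2.06 ± 1.05 (SD, n = 9; higher in 9 of 9 libraries; exact adjusted p = 0.0176) and Gria3 above Cacng5 by 0.85 ± 0.66 (SD, n = 9; 9 of 9 libraries; exact adjusted p = 0.0176). Cacng8 was above Cacng2 by 0.92 ± 0.82 (SD, n = 9; 4 of 5 knockouts and 4 of 4 controls; exact adjusted p = 0.0234). Each of these values pools unlike groups. In normalized counts per kilobase, the medians of Cacng4 and Gria4 were 249 and 113 in knockout and 158 and 18.1 in control. Those of Gria3 and Cacng5 were 4.66 and 3.74 in knockout and 8.02 and 3.29 in control. For Cacng8 and Cacng2 they were 34.2 and 34.4 in knockout and 15.7 and 3.79 in control. The other 6 pairs did not pass, and 4 of them turned over between the groups. Cacng7 was above Cnih2 in 1 of 5 knockouts and 4 of 4 controls, Gria4 above Gria1 in 1 of 5 knockouts and 4 of 4 controls, Gria1 above Gria2 in 5 of 5 knockouts and 0 of 4 controls, and Cacng2 above Gria3 in 5 of 5 knockouts and 0 of 4 controls.

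The makeup of the subunit family differed accordingly, which is given as a description only. Gria1 and Gria3 had been picked for their differences in this comparison, and a higher share of Gria1 lowers the shares of the other subunits. Per kilobase, Gria1 made up 46.0 ± 10.8% of the summed level of the 4 Gria genes in knockout (SD, n = 5) and 6.00 ± 4.16% in control (SD, n = 4). Gria2 made up 15.3 ± 5.34% in knockout and 44.8 ± 4.49% in control, and Gria3 made up 1.88 ± 0.884% in knockout and 15.3 ± 3.62% in control. Gria4 held 36.8 ± 5.22% in knockout and 33.8 ± 6.92% in control, which overlapped. The summed level was 286 ± 89.3 normalized counts per kilobase in knockout and 55.1 ± 14.95 in control. So the lower share of Gria2 in knockout stood beside a higher Gria2 level. In the TARP family the makeup differed less: Cacng7 and Cacng4 held 52.0 ± 5.4995% and 37.0 ± 4.82% in knockout, and 63.4 ± 3.83% and 31.9 ± 3.59% in control. Cacng2 held 4.74 ± 0.842% in knockout and 0.856 ± 0.241% in control. Its share never exceeded 5.53% in any knockout library.

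**Figure D2:**
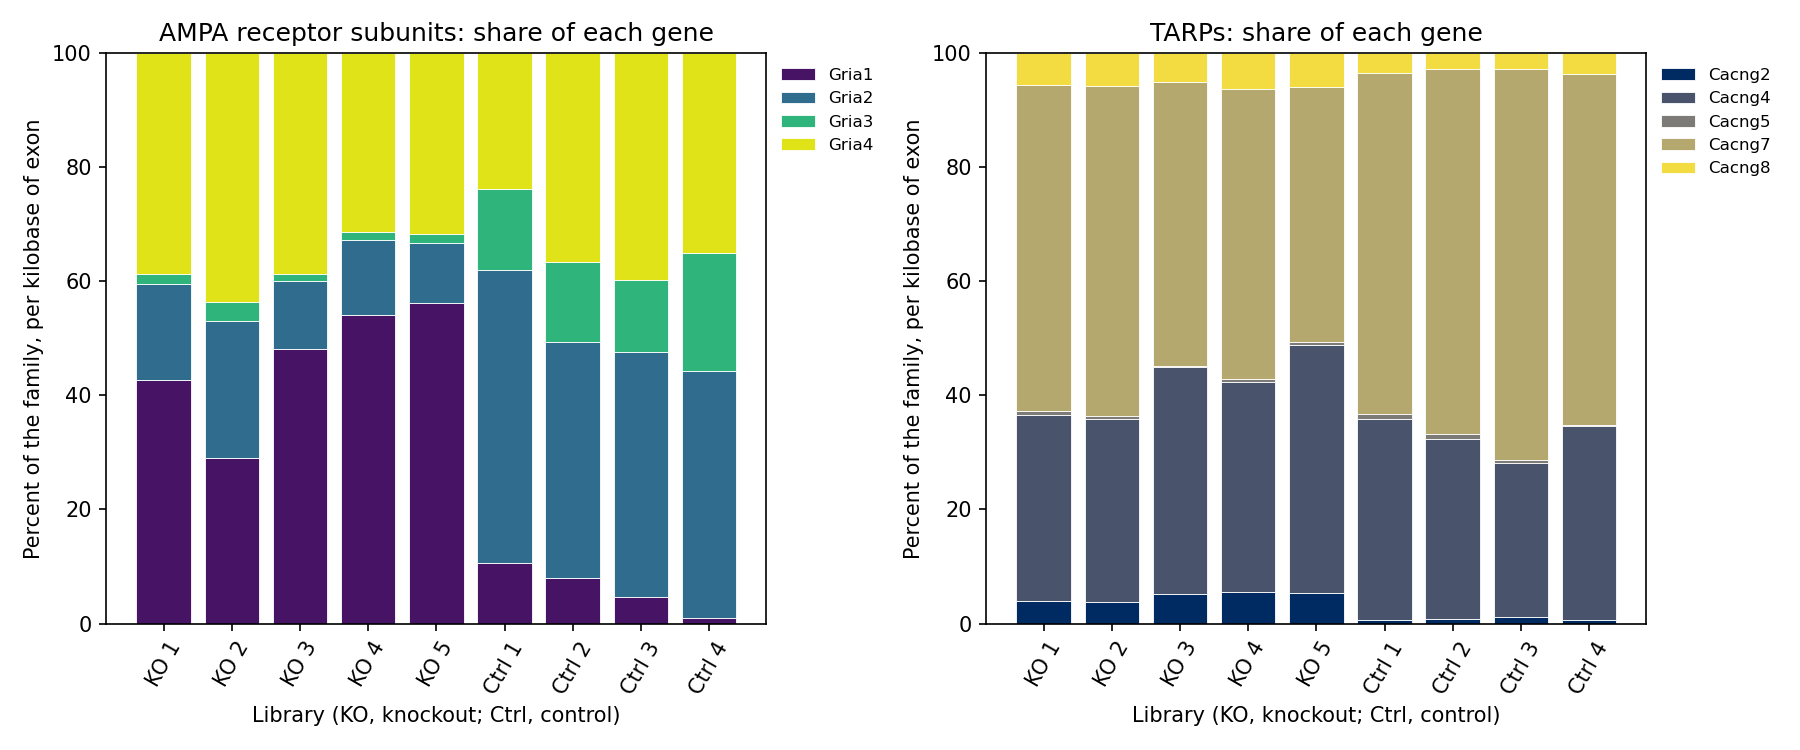
Share of each gene in the summed level of its family per kilobase of exon, for the 4 AMPA receptor subunits and the 5 TARPs, 1 bar per library with knockouts left of controls. Gria1 takes 29.0% to 56.1% in knockout and 0.937% to 10.6% in control, Gria4 overlaps between the groups, and Cacng7 and Cacng4 lead the TARPs throughout.

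Among the knockout libraries, 6 of the 7 members higher in knockout without overlap were lowest in replicate 2, and 6 were highest in replicate 5. The exception was Gria2, which was lowest in replicate 3 and highest in replicate 4. Gria3 was also highest in replicate 5, at 56.4 normalized counts, where it was nearest to the controls, and lowest in replicate 3. Cacng5 was highest in replicate 5 and lowest in replicate 3, and Cacng7 was highest in replicate 1 and lowest in replicate 2. Ctnnb1 was highest among the knockouts in replicate 2, at 77.9% of the control mean, and lowest in replicate 5, at 55.7%. The first principal component of the 13780 tested genes, with 49.4% of the variance, also put knockout replicate 2 nearest to the controls and replicate 5 farthest. The summed neuron markers given below were also lowest in replicate 2 (30655 normalized counts) and highest in replicate 5 (39587). The interneuron sum (20355 and 27113) and the cortical glutamatergic sum (298 and 887) had the same extremes. The progenitor sum was highest in replicate 2 (15863) and lowest in replicate 5 (12476). The remaining marker lists did not have both extremes in these libraries. The part of cell content in this order was not tested. With 5 libraries no correlation was computed.

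The genes most like 3 of the members over the 9 libraries were found by the root mean square difference of log2 values after each gene's own mean was removed, among 10376 tested genes with a mean of at least 50. For Gria1 they were Rph3a (0.68), Sst (0.91), Dlgap1 (1.16), Unc5c (1.47) and Ptprt (1.47). For Cacng2 the nearest was another member, Gria4 (0.26), followed by Mef2c (0.27), B230334C09Rik (0.33), Lrrc7 (0.33) and Cntnap4 (0.33). For Gria3 they were Nup210 (0.13), Nepro (0.13), Plpp3 (0.14), Ptpn14 (0.15) and Fn1 (0.16). The measure takes in the difference between the groups, for which these members were chosen.

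Other genes of AMPA receptor complexes are given by role. For comparison, 17.2% of all tested genes were higher and 17.3% lower. These lists and the marker lists below were chosen with earlier results of these data known, so their counts and p-values are not independent of that choice. Of 16 genes of further auxiliary and complex proteins, 12 passed the filter, 7 rose, 0 fell and 5 did not pass the test, with a median log2 fold change of 0.93. Shisa7, an auxiliary protein of synaptic receptors, rose to 240 ± 82.5 normalized counts in knockout (SD, n = 5), against 73.7 ± 10.3 in control (SD, n = 4), by 1.63 on the log2 scale (SE 0.215, limma adjusted p = 0.000223). The neuronal pentraxin Nptx2, a secreted protein that clusters AMPA receptors, rose by 1.13 (SE 0.220, limma adjusted p = 0.00150). The noelins Olfm1 (1.05) and Olfm2 (0.75), secreted proteins found with AMPA receptors, rose too. The remaining TARP, Cacng3, named here after its values were seen, rose to 71.2 to 132 normalized counts in knockout, against 4.04 to 40.7 in control (2.50, SE 0.525, limma adjusted p = 0.00557). Below the filter were Shisa8, Prrt2, Olfm3 and Nptx1.

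Receptor assembly and RNA editing were covered by 8 genes, of which 3 rose and 0 fell, with a median of 0.44; the other 5 did not pass. Porcn, an acyltransferase of Wnt proteins also found in AMPA receptor complexes, rose to 201 ± 27.9 normalized counts in knockout, against 87.1 ± 14.2 in control (1.20, SE 0.144, limma adjusted p = 7.47e-05). The editing enzyme gene Adar rose by 0.48 (SE 0.102) and Cpt1c, whose product binds receptors in the endoplasmic reticulum, by 0.63 (SE 0.186, limma adjusted p = 0.0202). Cpt1c had adjusted p = 0.0600 without control replicate 1, 0.0596 without control replicate 4 and 0.241 without both. Adarb1, the enzyme known to edit the Gria2 pore codon, had 138 ± 32.8 normalized counts in knockout and 104 ± 22.7 in control and did not pass (limma adjusted p = 0.109). Without control replicate 2, 1 gene of the list fell, the palmitoyltransferase gene Zdhhc3 (-0.27, limma adjusted p = 0.0429).

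Anchoring and trafficking were covered by 15 genes, of which 6 rose and 2 fell, with a median of 0.24; the other 7 did not pass. The number that fell is no larger a share than among all genes tested. Grip2 and Grip1, scaffolds that bind the tails of GluA2 and GluA3, rose by 2.43 (SE 0.355, limma adjusted p = 0.000563) and 1.09 (SE 0.140, limma adjusted p = 0.000118). Grip2 had 133 ± 55.4 normalized counts in knockout and 23.98 ± 10.2 in control. Epb41l1, a cytoskeletal linker of GluA1, rose by 1.35 (SE 0.218) and Dlg4, the postsynaptic scaffold PSD-95, by 0.83 (SE 0.136). The genes that fell were Arc, an activity-induced gene that promotes receptor removal from the surface, and the ubiquitin ligase Nedd4. Arc had 12.7 ± 2.45 normalized counts in knockout and 25.3 ± 4.43 in control (-0.94, SE 0.249, limma adjusted p = 0.00963), and Nedd4 fell by 0.25 (SE 0.0852, limma adjusted p = 0.0364). In fits that left out any 1 of knockout replicates 1, 3 and 5 or of control replicates 2, 3 and 4, 1 of the list fell, Arc. Against control replicates 2 and 3 alone 0 fell and 6 rose, with limma adjusted p = 0.139 for Arc and 0.0512 for Nedd4.

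**Figure D3:**
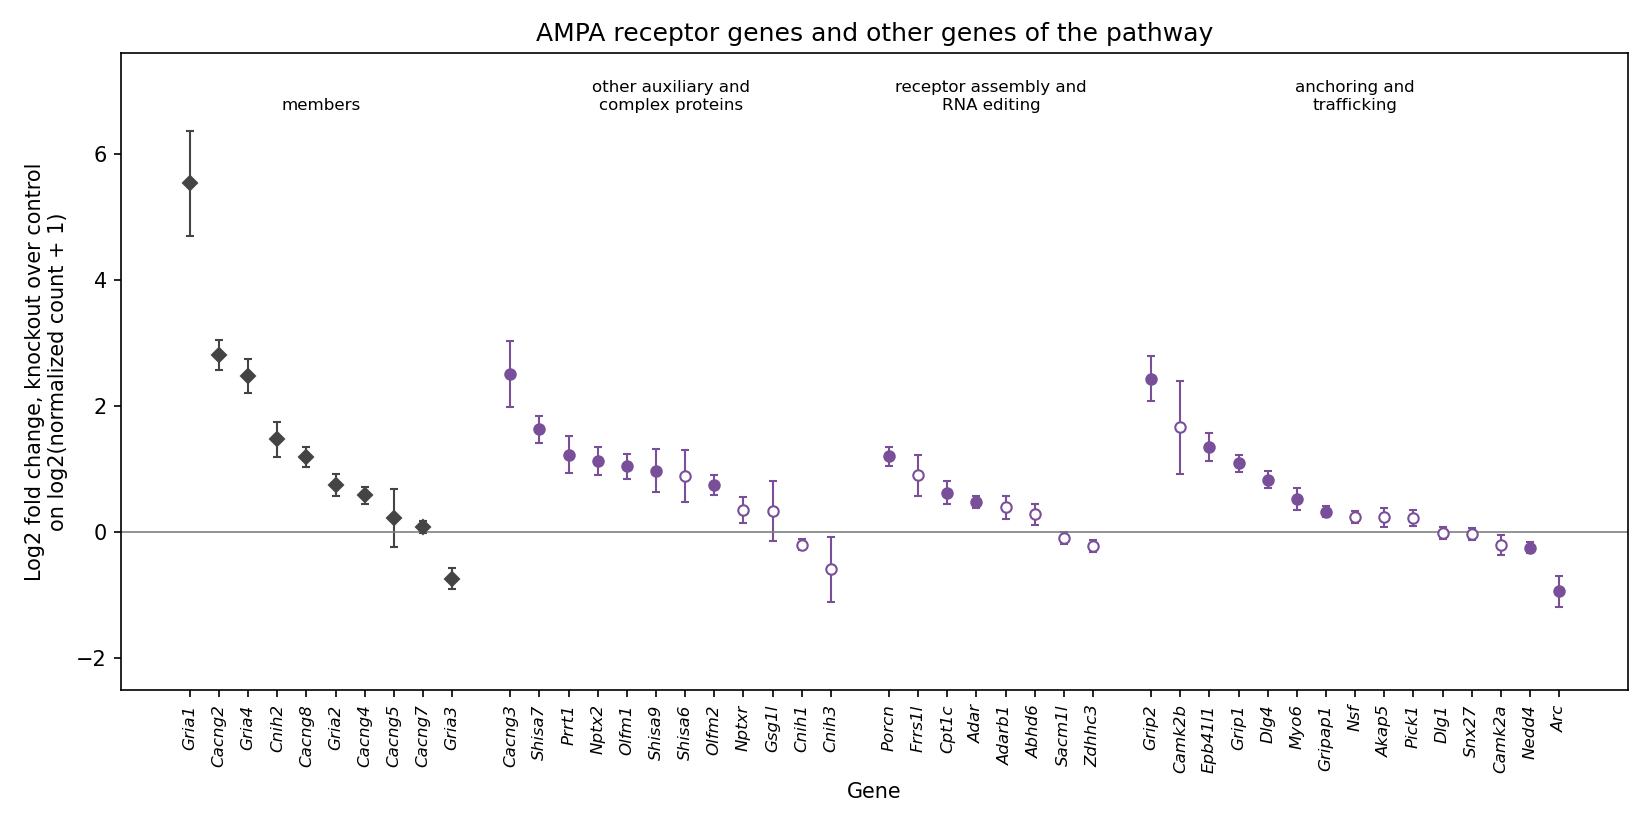
Log2 fold change of knockout over control with its SE for the 10 members (diamonds, no test) and for the tested genes of 3 other lists (circles, filled where limma's adjusted p is under 0.05). Gria1 is highest at 5.53 and Gria3 is at -0.74, while Grip2 at 2.43 and Cacng3 at 2.50 lead their lists.

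Markers of neurons moved with the members. In bulk tissue, fewer cells of a type and less RNA per cell cannot be told apart. Of 13 neuron markers 8 rose and 0 fell, and their summed level was 30655 to 39587 normalized counts in knockout and 17400 to 21910 in control. Dcx, a microtubule protein of migrating neurons, rose by 1.33 (SE 0.157, limma adjusted p = 0.000124) and Map2 by 0.82. All 14 interneuron markers rose, or 12 to 14 with any 1 library left out (12 without knockout replicate 5), with sums of 20355 to 27113 in knockout and 7409 to 14907 in control. Sst, the neuropeptide of an interneuron class, rose by 4.89 (SE 0.282) and Nxph1 by 2.97. Of 10 progenitor markers 5 fell and 0 rose, although 1 rose without knockout replicate 1, with sums of 12476 to 15863 in knockout and 20038 to 25553 in control, and the intermediate filament gene Nes fell by 1.02. Their part in the differences of the members was not tested.

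Other marker lists moved less. Of 12 cortical glutamatergic markers, 0 passed by limma. Without control replicate 1, 2 of them rose, and without both that library and control replicate 4, 1 did. Reln rose by 1.65 without control replicate 1 (limma adjusted p = 0.00563). Reln, a secreted protein of early cortical neurons, had 106 to 270 normalized counts in knockout and 42.7 to 501 in control. Of 4 tested choroid plexus markers 0 passed, and Kcnj13 and Folr1 were below the filter. Otx2 had 410 normalized counts in knockout replicate 4 and 83.1 to 106 in the other knockouts, against 143 to 285 in control, and fell by 0.94 without knockout replicate 4 (limma adjusted p = 0.00437). Of 5 oligodendrocyte precursor markers, Olig1 rose by 0.48 and Olig2 fell by 0.93, with sums of 908 to 1271 in knockout and 1387 to 1842 in control. Olig2 also marks MGE progenitors. Olig1 did not pass in fits without any 1 of knockout replicates 3 and 5 or control replicates 1, 2 and 4 (0.36 without control replicate 1, limma adjusted p = 0.121). Of 4 tested striatal markers, Ebf1 rose by 0.70. It did not pass without any 1 of knockout replicates 1, 2, 3 and 4 or control replicates 1 and 2 (0.55 without control replicate 1, limma adjusted p = 0.103). The list summed to 272 to 372 in knockout and 268 to 380 in control, with Drd1, Drd2, Ppp1r1b and Tac1 below the filter. Of 5 tested microglia markers 0 passed, though 3 fell without knockout replicate 5, with sums of 134 to 243 in knockout and 203 to 294 in control.

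**Figure D4:**
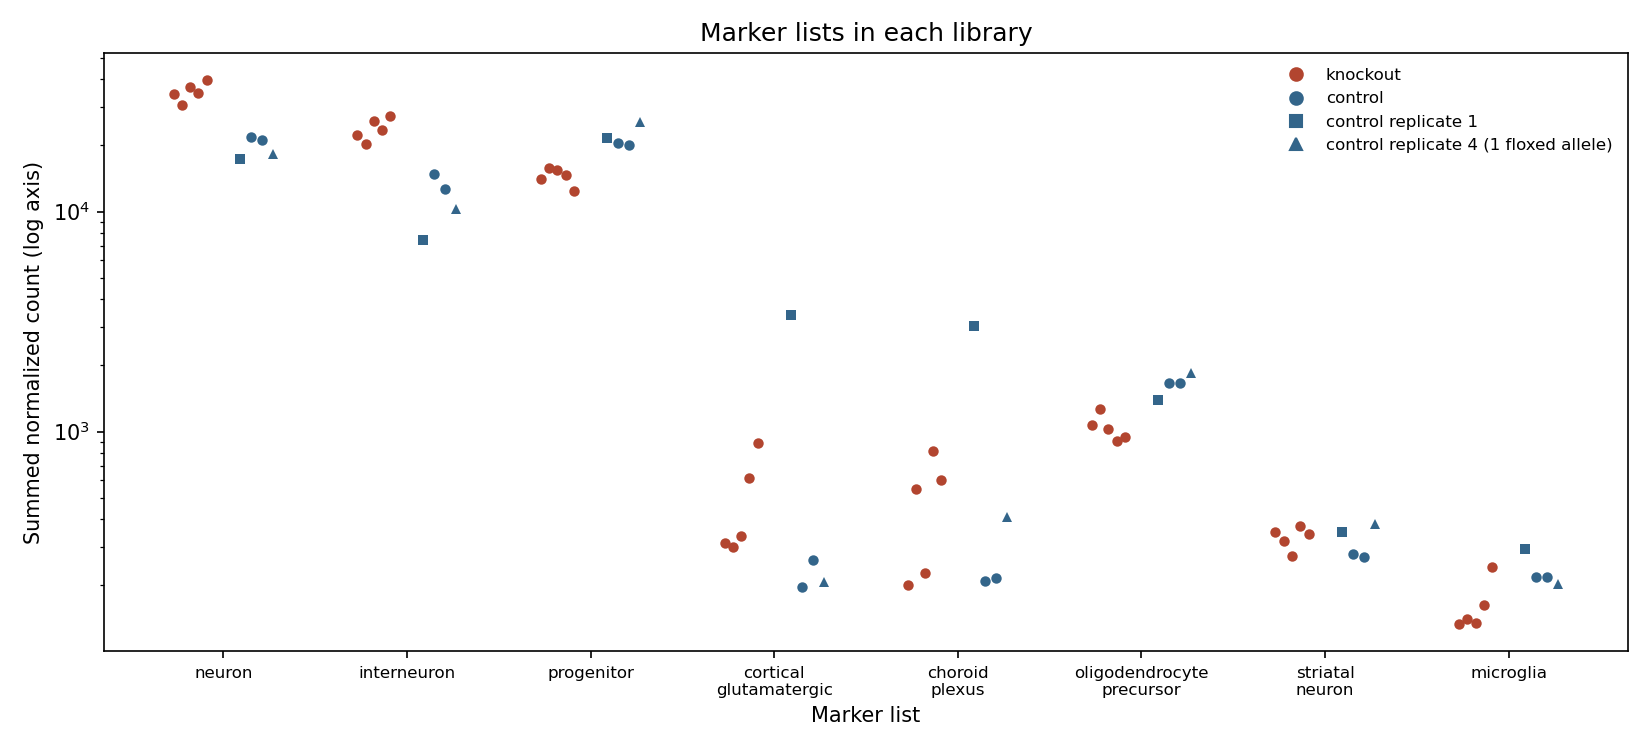
Summed normalized count of each marker list in each library on a log axis, with knockout left of control. Neuron and interneuron lists are higher in every knockout, the progenitor list is lower in every knockout, and control replicate 1 stands out in the cortical and choroid plexus lists at 3385 and 3010.

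Set against the neuron markers of the same library, the members fell into groups. The mean log2 value of the 13 neuron markers was higher in knockout by 0.94. Relative to it, Gria1 was higher in knockout by 4.59, Cacng2 by 1.86 and Gria4 by 1.54, with no overlap between the groups. Cnih2 (0.53), Cacng8 (0.25), Gria2 (-0.20), Cacng4 (-0.36) and Cacng5 (-0.72) overlapped. Cacng7 (-0.86) and Gria3 (-1.68) were lower in every knockout than in any control. The interneuron markers, whose mean was higher by 1.74, gave 3.79 for Gria1, 1.07 for Cacng2 and 0.74 for Gria4, again without overlap. Relative to them, Gria2 (-0.99), Cacng4 (-1.16), Cacng7 (-1.66) and Gria3 (-2.48) were lower in every knockout, and Cacng5 (-1.52), Cacng8 (-0.54) and Cnih2 (-0.27) overlapped. These differences are descriptions on the log2 scale.

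**Figure D5:**
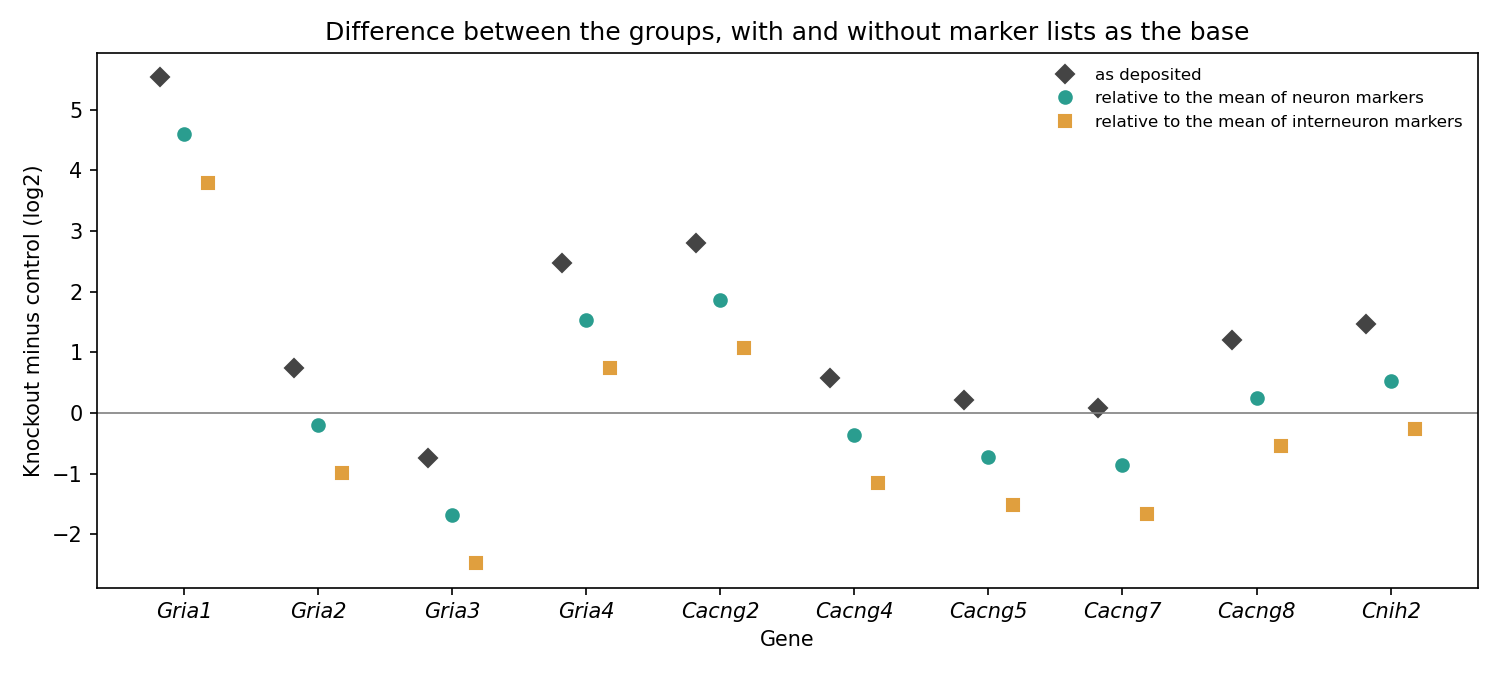
Knockout minus control on the log2 scale for each member, as deposited and relative to the mean log2 value of the neuron or interneuron markers of the same library. Gria1, Gria4 and Cacng2 stay above 0 on all 3 bases, Gria3 stays below 0, and Gria2 goes to -0.20 and -0.99.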

How the data were processed

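RNA was sequenced from 5 knockout and 4 control libraries; groups were taken from the labels. Deposited was 1 signal value for each gene and library: counts that the authors had scaled by a size factor of the library, as the values show (100% of values above 0 within 0.01 of a whole multiple of the column's smallest value). Per the submitters' processing notes, the tools were DESeq2, TopHat2 2.1.1, R 3.4.0 and HTSeq 0.9.1, on mm10. For their roles, the annotation and the strand setting: not given in the sources used here. No count model was run on these scaled values.

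Symbols matched 48058 of 48526 identifiers. Gene positions and exon lengths are from GENCODE M21, on the same build. Testing used limma 3.58.1 (trend and robust, statmod 1.5.0, R 4.3.3), two-sided, on log2(normalized count + 1) for 13780 genes with a mean of at least 10, with Benjamini-Hochberg adjustment over all of them and called at 0.05. Each log2 fold change is the knockout mean minus the control mean of these values, so changes of low genes are understated. The procedure was tested on simulated data. Exact permutation tests used scipy 1.17.1 or full enumeration in Python 3.11.15.

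The members and lists were chosen with earlier results of these data known. Named were Ctnnb1, all members, up to 4 genes per list past the threshold with the smallest p (up to 2 where none passed) and the 5 genes most like Gria1, Cacng2 and Gria3. Cacng3, Adarb1, Zdhhc3, Arc, Nedd4 and A730060N03Rik were named after their values were seen. A further gene that the rule names is not reported here. At most 0.159% of the 50-base stretches of any member's transcripts also stand in another member, so reads shared between members are few. Alternatives were a minimum mean of 50, no filter, TMM scaling computed from its published formula, pseudocounts of 0.5 and 8, limma without trend or robust, the replicate number as a block, each library left out, control replicates 2 and 3 alone, and the longest transcript as the length. The marker lists as a base were added after seeing the data.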

Additional observations from a re-analysis of the deposited data

Results flagged for a closer look

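Of 44 groups of libraries tested over 22 genes, 2 held a library farther from the rest than a critical value that chance passes in about 1 in 20 groups. Nptx2 stood at 73.5 normalized counts in knockout replicate 5, against 43.1 to 46.1 in the other knockouts. Cpt1c stood at 466 normalized counts in knockout replicate 5, against 275 to 317 in the other knockouts. None of the 10 members had such a library.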

How the results depend on the processing

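The members kept their counts, 7 higher and 1 lower, under each alternative except 2. Against control replicates 2 and 3 alone 6 were higher, all but Cacng4, and with the replicate number as a block 5 were, all but Gria1 and Gria2; these counts describe members chosen on the same comparison. The labels do not state whether the numbers pair the libraries, and so few pairs cannot settle it. Same-numbered libraries correlated in their deviations by -0.117 to 0.137, and 1 of 4 knockouts was nearest to the control of its own number. The block fit leaves knockout replicate 5 without a partner, so its log2 differences are those without that library: 5.34 for Gria1 and 0.75 for Gria2. It gave 12 interneuron markers that rose, and 0 anchoring and trafficking genes that fell. With a minimum mean of 50, 4 of the further complex genes rose and 1 anchoring gene fell, as fewer genes were tested; without trend or robust 1 fell. Against control replicates 2 and 3 alone, 1370 of all genes were higher and 1108 lower, 0 anchoring genes fell, and Cacng5 (-0.22) and Cacng7 (-0.069) changed sign; fewer libraries were tested. Leaving out 1 library gave 1 to 2 fallen anchoring genes and 0 to 1 fallen assembly genes, and Cacng5 between -0.26 (without control replicate 4) and 0.51 (without control replicate 2). With the longest transcript as length, Gria3 held 2.96% in knockout and 20.4% in control, Cacng8 held 6.61% in knockout, and 2 further pairs passed: Cnih2 over Cacng4 (0.61, exact adjusted p = 0.0422) and Gria2 over Cacng8 (0.58, exact adjusted p = 0.00879). By that length Gria1 was above Gria2 in 4 of 5 knockouts, all but replicate 2, and in 0 of 4 controls. Gria4 then held 35.7% in knockout and 27.7% in control, farther apart than with joined exons, though single libraries still overlapped. Relative to neuron markers Gria2 (-0.20), Cacng4 (-0.36), Cacng5 (-0.72) and Cacng7 (-0.86) changed sign, and relative to interneuron markers Gria2 (-0.99), Cacng4 (-1.16), Cacng5 (-1.52), Cacng7 (-1.66), Cacng8 (-0.54) and Cnih2 (-0.27) did. Unless stated, the cause was not tested. Depth limits Cacng5, with 3 to 19 reads in the controls, and Gria1 in control replicate 4, with 2.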

Other observations

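The heterozygous control replicate 4 stood at the low edge of the controls for the pore-forming subunits, though for Gria3 and Gria4 control replicate 1 was almost as low. Gria1, Gria2, Gria3 and Gria4 were all below the range of the other 3 controls there, at 1.99, 237, 71.7 and 77.7 normalized counts in control replicate 4, against 19.1 to 33.4, 416 to 457, 72.8 to 88.4 and 78.8 to 172 in the others. In all, 5 members were below that range, 3 within it and 2 above it, Cacng4 and Cacng8. The share of all tested genes outside that range in this library was not counted, so nothing is read from these counts. Relative to the other controls, this library lay on the side of the knockouts for Cacng4 (596, against 540 to 568) and Cacng8 (42.8, against 33.8 to 37.4). It lay on the opposite side for Gria1 and Gria2. For Gria3 (71.7, against 72.8 in control replicate 1) and Gria4 (77.7, against 78.8) the gap was too small to give a side. With 1 library there is no replicate check. Its neuron markers summed to 18337 normalized counts, within the 17400 to 21910 of the remaining controls. Its interneuron markers summed to 10292, within their 7409 to 14907. Its progenitor markers summed to 25553, above their 20038 to 21672. The oligodendrocyte precursor (1842, against 1387 to 1664) and striatal sums (380, against 268 to 351) were also above, and microglia (203, against 219 to 294) below. On the first principal component it lay farthest from the knockouts (47.9, against 25.3 to 34.9). The part of cell content in its member values was not tested.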
